A study of Mus musculus with 6 samples.

Results

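The 37 genes described here encode the enzymes of glycolysis, the transporters that bring glucose in and take lactate out, the enzymes that steer pyruvate, and the pentose phosphate pathway. They were taken from a list of symbols grouped by function, chosen with earlier results of these data known. They were matched by Ensembl identifier among 37991 genes counted. All 37 were found, and all were among the 16472 genes left by the filter on low counts. By role they are 5 transporters, 3 enzymes of hexose entry, 3 phosphofructokinases, 3 regulators of phosphofructokinase (the PFKFB family), 11 enzymes of lower glycolysis, 2 lactate dehydrogenase subunits, 3 genes at the pyruvate dehydrogenase step, 3 enzymes of the oxidative and 4 of the non-oxidative pentose phosphate branch. The 17 glycolytic enzymes named together below run from the hexokinases to pyruvate kinase and leave out the PFKFB family.

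The cells were C2C12, a mouse myoblast line of C3H origin that can be grown as dividing myoblasts or made to differentiate into muscle cells. All libraries came from cells that had received a lentivirus with a short hairpin, directed at luciferase in the control and at Kap1 in the knockdown. Kap1 is the protein encoded by Trim28, a scaffold that brings chromatin modifiers to DNA-bound factors. Cells labelled MB were kept in growth medium with fetal calf serum, and 2 control (MB_shCtrl) and 2 knockdown (MB_shKap1) libraries were made. Cells labelled MT had spent 48 hours in differentiation medium with horse serum, insulin, transferrin and selenium, and each of MT_shCtrl and MT_shKap1 is 1 library. The time in culture, the serum and the added insulin all differ between MB and MT, and their parts cannot be told apart here. Cytoplasmic polyadenylated RNA was sequenced. The labels do not say whether the MB replicates were separate cultures. The p-values of the calls below rest on how far the knockdown difference varied between MB replicates 1 and 2, which may be technical. They cover no spread between MT cultures, as each MT group is 1 library.

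Glycolysis splits glucose into pyruvate and yields ATP quickly, which makes it a main fuel route of contracting muscle. Several of its steps are run by isoenzymes, and adult muscle uses its own versions: Pfkm of phosphofructokinase, Pgam2 of phosphoglycerate mutase and Eno3 of enolase, in place of the widely expressed Pfkl, Pfkp, Pgam1 and Eno1. The pentose phosphate pathway leaves glycolysis at glucose phosphate. Its oxidative branch makes NADPH and ribose phosphate, which dividing cells need for lipids, nucleotides and protection from oxidants, and its non-oxidative branch returns the carbon to glycolysis.

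The muscle and widely expressed versions of phosphoglycerate mutase and enolase have different promoter sequences, and the 250 bases upstream of the RefSeq start are shown here because these pairs carry the isoenzyme comparison below. Capitals mark E-boxes, the CANNTG sites bound by MyoD and its relatives, and the MEF2 motif. Where RefSeq lists several starts, the one shown lies farthest upstream. Coordinates are from GRCm38.p6 and do not apply to the mm9 build of the counts.
Pgam2, chr11:5803797-5804046, minus strand: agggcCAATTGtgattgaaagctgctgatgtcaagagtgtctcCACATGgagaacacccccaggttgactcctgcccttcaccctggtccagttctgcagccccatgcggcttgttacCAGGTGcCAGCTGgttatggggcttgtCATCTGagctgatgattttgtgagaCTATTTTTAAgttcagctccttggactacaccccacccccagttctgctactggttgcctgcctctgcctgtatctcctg
Pgam1, chr19:41911621-41911870, plus strand: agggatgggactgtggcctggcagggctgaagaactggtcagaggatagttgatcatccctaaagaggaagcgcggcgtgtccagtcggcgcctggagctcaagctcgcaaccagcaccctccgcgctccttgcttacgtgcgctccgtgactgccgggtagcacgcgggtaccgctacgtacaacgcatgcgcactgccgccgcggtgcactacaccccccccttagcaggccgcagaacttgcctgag
Eno3, chr11:70656926-70657175, plus strand: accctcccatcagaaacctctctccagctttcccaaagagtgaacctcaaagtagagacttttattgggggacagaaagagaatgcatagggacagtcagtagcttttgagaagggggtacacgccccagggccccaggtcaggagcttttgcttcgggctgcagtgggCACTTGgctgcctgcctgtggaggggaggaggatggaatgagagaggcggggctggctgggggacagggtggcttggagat
Eno1, chr4:150236458-150236707, plus strand: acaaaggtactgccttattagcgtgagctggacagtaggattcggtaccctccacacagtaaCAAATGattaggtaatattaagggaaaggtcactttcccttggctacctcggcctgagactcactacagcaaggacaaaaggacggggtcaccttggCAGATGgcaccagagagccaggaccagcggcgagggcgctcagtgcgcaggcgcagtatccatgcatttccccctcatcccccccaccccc

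The Pgam2 window held 5 E-boxes, 1 of them CAGCTG, and a MEF2 motif that begins 80 bases before the RefSeq start (position -80). Sequence just after the Pgam2 and Pgam1 starts was not found in a GENCODE transcript of the gene, so positions from these starts are uncertain. For Eno3 and Eno1 it was found. The Pgam1 window held no E-box and 1 ACGTG, the core of the hypoxia response element. The Eno3 window held 1 E-box and the Eno1 window shown 2, while the windows of the other listed Eno1 starts held 0. Promoters were matched for 35 of the 37 genes, all but Slc2a3 and Slc2a4, and both strands were searched over all listed starts of a gene. An E-box was present for 22 of the 35 and for 69.3% of all 27025 genes in the table, so this motif is common. CAGCTG, which is itself an E-box, was present for 6 of the 35 and 14.7% of all genes, the MEF2 motif for 2 of the 35 (Pgam2 and Pfkfb1) and 3.42%, and ACGTG, which can lie inside an E-box, for 11 of the 35 and 18.5%. These matches describe the sequence only.

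The libraries held 36247530 to 49839994 counts on genes and 19386 to 21351 genes with a count, and 3 counts correspond to 0.0602 to 0.0828 CPM (counts scaled to the library's total on genes, without a correction for length or composition). Trim28 stood at 587 and 417 CPM in control MB, 152 and 101 in knockdown MB, 382 in control MT and 122 in knockdown MT, so the knockdown was visible in each pair of libraries. Replicates 1 and 2 of MB differed in a like way in control and knockdown cells. Across 16472 genes, which are no independent replicates, the difference between them correlated at r = 0.762 (Spearman's rho 0.681). A mark in the file names of replicate 1 and of both MT libraries, absent for replicate 2, has a meaning not given in the sources used here. Without a term for this split, edgeR called 0 genes in all 5 comparisons made (454 to 4174 genes at unadjusted p below 0.05, smallest adjusted p 0.0522 to 1), and DESeq2 called 52 to 2384 genes. Every call below ("rose", "fell") is from the edgeR fit with that batch term, at an adjusted p below 0.05. The same edgeR fit without the term made none of them. Since both MT libraries carry the mark, MT minus MB differences in that fit rest on the replicate 1 level, and the difference of log2 CPM against replicate 2 alone is given where it is over 1.5 times larger or smaller. That was so for 10 of the 24 members called in control cells and 6 of the 17 called in knockdown cells, and no sign changed among these called members.

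Markers of the labelled cell state set the control MT library apart from the other 5. The summed level of 7 myotube markers (Myog, Mymk, Ckm, Acta1, Tnnt3, Myh3 and Mef2c) was 11 and 118 CPM in control MB, 11.7 and 69.3 in knockdown MB, 6310 in control MT and 110 in knockdown MT, with none of the 7 at 0 in any library. In sum the library labelled MT_shKap1 thus had no more of these transcripts than MB_shCtrl replicate 2, but single markers differed. Ckm (4.75 against 2.46 CPM), Acta1 (33.8 against 29.8) and Tnnt3 (18.2 against 12.2) were higher in MT_shKap1. Mymk was about level, and Myog, Myh3 and Mef2c were lower. The MT_shKap1 sum lay above both knockdown MB sums, 11.7 in replicate 1 and 69.3 in replicate 2. In control and in knockdown MB the sum was lower in replicate 1 than in replicate 2, so the batch term also takes up this difference. MT minus MB differences in that fit thus rest on the MB replicate with the lower sum. The part of cell state in the split between replicates was not tested. The 5 myoblast markers summed to 386 to 1010 CPM in MB, 1740 in control MT and 799 in knockdown MT, most of it from Des. They did not move as a group. Des, Myod1 and Cdh15 were highest in control MT, and Pax7 was at or below 0.301 CPM. Myf5 was lowest in control MT, at 34.8 CPM against 49.6 to 91.6 in MB and 82.4 in knockdown MT. Of other lineages, the 6 smooth muscle markers summed to 1390 to 6330 CPM and the 4 fibroblast markers to 3350 to 9210 CPM over the libraries. Most of these sums came from Acta2 (1210 to 5120 CPM) and Col1a1 (3290 to 9170 CPM). Of the same lists, Myh11, Dpt and Lum were at or below 1.5 CPM. Lists for fat, endothelium, leukocytes and neurons were at or below 11.6 CPM, with Adipoq, Adgre1, Snap25 and Rbfox3 at 0 in all 6 libraries. In bulk RNA, fewer cells of a type and less RNA per cell cannot be told apart, and the part of cell state in the differences below was not tested.

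**Figure D1:**
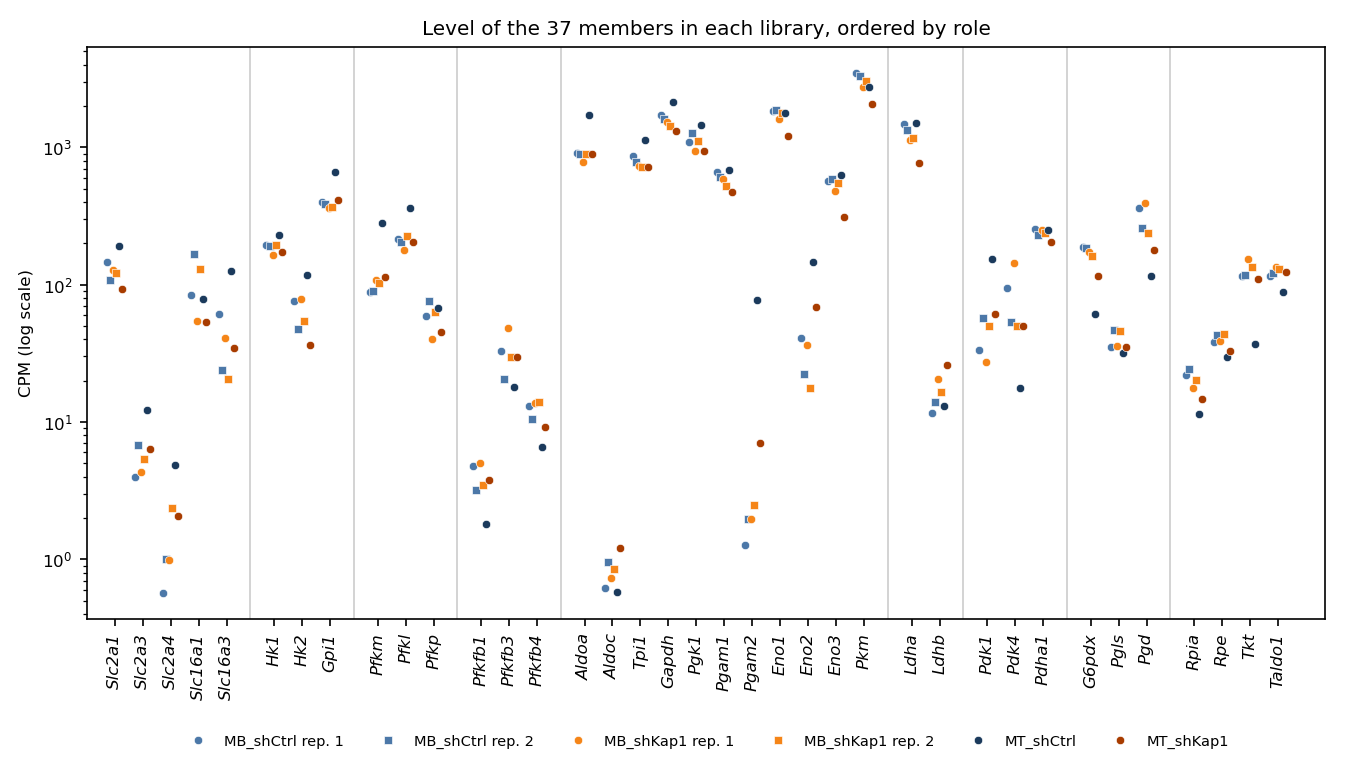
Level of each of the 37 genes in each of the 6 libraries, in CPM on a log axis, with genes ordered by role along the x axis and 1 point per library. Pgam2 spans the widest range, from 1.26 CPM in control MB to 77.6 in control MT, while Tkt, G6pdx and Pgd have their lowest point in control MT.

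In control cells RNA for many glycolytic enzymes was higher in MT than in MB, and RNA for most pentose phosphate enzymes was lower. Of the 17 glycolytic enzymes 9 rose and 0 fell, and of the 7 pentose phosphate enzymes 0 rose and 6 fell. Over all 37 genes 14 rose and 10 fell, beside 44.9% of all genes tested that were called in this comparison, 22.3% higher and 22.6% lower. The median log2 difference was 0.43 for the glycolytic and -0.91 for the pentose phosphate enzymes, against -0.01 for all genes tested. Against MB replicate 2 alone the medians were 0.41 and -1.09. With the DESeq2 Wald test and the batch term Pfkfb1, Pfkfb4, Rpe and Taldo1 did not pass, and Rpe did not with DESeq2 size factors either.

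In the knockdown MT library the glycolytic enzymes were lower than in the control MT library and several pentose phosphate enzymes were higher. Of the 17 glycolytic enzymes 16 fell and 0 rose, and of the 7 pentose phosphate enzymes 3 rose and 0 fell. Over all 37 genes 6 rose and 23 fell, beside 20.3% of all genes tested called, 9.09% higher and 11.2% lower. Median log2 differences were -0.82 for the glycolytic and 0.34 for the pentose phosphate enzymes, against 0.02 for all genes. This comparison has 1 library on each side and assumes that these vary as the MB libraries do. With scaling to total library size the median of all genes moved to 0.15, and 62.7% of all calls were higher in place of 44.8%. The medians of the glycolytic and pentose phosphate enzymes were then -0.69 and 0.48, and 27 of the 29 calls among the 37 genes remained, all but Hk1 and Pkm. With the DESeq2 Wald test and the batch term Ldhb, Pfkfb3, Pgd, Slc2a3 and Slc2a4 did not pass, Pgd did not with DESeq2 size factors, and Pdk4 did not without the filter on low counts.

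The knockdown effect in MT differed from that in MB for 16 of the 37 genes. A test of the difference (the MT effect minus the MB effect) called 14 lower and 2 higher, beside 10.5% of all genes tested called, 3.82% higher and 6.63% lower. The 14 were 9 glycolytic enzymes, 3 transporters, Ldha and Pdk1, and the 2 were G6pdx and Tkt. Scaled to total library size, the share of all calls that were higher went from 36.6% to 52.1%, and Gapdh, Gpi1, Ldha and Pfkl did not pass. With the DESeq2 Wald test and the batch term Slc2a4 did not pass.

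Pgam2, the muscle phosphoglycerate mutase, had the largest change of the 37 genes in both comparisons. Its level was 1.26 and 1.97 CPM in control MB, 1.95 and 2.47 in knockdown MB, 77.6 in control MT and 7.01 in knockdown MT. Control MT stands far above all other libraries, and knockdown MT lies above all 4 MB libraries. The log2 difference between MT and control MB was 5.87 (SE 0.195, adjusted p = 1.12e-08, edgeR), and 5.27 against replicate 2 alone. In MT it fell by 3.61 with the knockdown on the log2 scale (SE 0.194, adjusted p = 1.2e-06, edgeR). The MT effect differed from the MB effect by -4.04 (SE 0.254, adjusted p = 7.21e-06, edgeR). Pgam2 still rose between MB and MT in knockdown cells, by 1.83 on the log2 scale (SE 0.197, adjusted p = 0.00013, edgeR).

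Its widely expressed counterpart Pgam1 was not called with control differentiation. It stood at 663 and 611 CPM in control MB, 590 and 522 in knockdown MB, 679 in control MT and 470 in knockdown MT. Control MT lay just above both control MB libraries, by 0.06 and 0.16 on the log2 scale against replicates 1 and 2, and the difference did not pass. The knockdown MT library was the lowest of the 6, and Pgam1 fell by 0.67 there (SE 0.139, adjusted p = 0.00808, edgeR). A near-identical copy outside this list held 10.8% to 12.5% of the counts of Pgam1 and the copy together, so its share of reads is uncertain.

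Pfkm, the muscle phosphofructokinase, catalyses the committed step of glycolysis. It was at 88.6 and 90.5 CPM in control MB, 108 and 103 in knockdown MB, 281 in control MT and 113 in knockdown MT. Control MT stood alone, and knockdown MT was close to the knockdown MB libraries. Pfkm rose by 1.67 on the log2 scale with control differentiation (SE 0.121, adjusted p = 3.17e-06, edgeR) and fell by 1.45 with knockdown in MT (SE 0.134, adjusted p = 5.62e-05, edgeR). Across differentiation of knockdown cells its log2 difference against the replicates was -0.01 and 0.03.

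Pfkl, the liver-type and widely expressed phosphofructokinase, was also highest in control MT. Its levels were 215 and 204 CPM in control MB, 178 and 228 in knockdown MB, 364 in control MT and 205 in knockdown MT. It rose by 0.89 on the log2 scale in control MT (SE 0.156, adjusted p = 0.00176, edgeR) and fell by 0.97 with knockdown in MT (SE 0.173, adjusted p = 0.00517, edgeR). Pfkp, the platelet type, was at 59.1 and 76.3 CPM, 40.3 and 63.2 CPM, 67.3 CPM and 45.3 CPM in the same order. Control MT lay between the control MB libraries. Pfkp fell with knockdown in MT by 0.71 (adjusted p = 0.00853, edgeR), and its reads can be shared with the overlapping gene Pitrm1, at 98.7 to 169 CPM, since the strand setting is not given.

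Eno3, the muscle enolase, was not called with control differentiation. It was already at 566 and 587 CPM in control MB and 477 and 552 in knockdown MB, with 633 in control MT and 310 in knockdown MT. The control MT library was the highest by a small margin, a log2 difference of 0.18 and 0.11 against MB replicates 1 and 2 that did not pass, whereas knockdown MT was lower than every other library. Eno3 fell by 1.17 on the log2 scale with knockdown in MT (SE 0.146, adjusted p = 0.000404, edgeR) and by 0.74 from MB to MT in knockdown cells (SE 0.138, adjusted p = 0.00278, edgeR).

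Eno1, the widely expressed enolase, was at 1850 and 1880 CPM in control MB, 1600 and 1790 in knockdown MB, 1790 in control MT and 1210 in knockdown MT. Only the last stands apart from the rest, and Eno1 fell there by 0.70 on the log2 scale (SE 0.151, adjusted p = 0.00957, edgeR). Near-identical copies, Eno1b (400 to 587 CPM) among them, held 37.3% to 38.7% of the joint counts, and Eno1b fell by 0.63 in knockdown MT (adjusted p = 0.0139, edgeR). Eno2, known as the neuronal enolase, was the enolase that rose. It stood at 40.7 and 22.5 CPM in control MB, 36.3 and 17.7 in knockdown MB, 145 in control MT and 68.4 in knockdown MT, so both MT libraries lie above all MB libraries. Its rise was 1.81 in control cells (SE 0.125, adjusted p = 2.14e-06, edgeR) and 0.88 in knockdown cells (SE 0.125, adjusted p = 0.000665, edgeR), or 2.69 and 1.83 against replicate 2 alone. It fell by 1.22 with knockdown in MT.

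Within each enzyme family the share of the muscle isoenzyme was computed from counts divided by the exonic length of the gene, which needs no scaling between libraries. Pgam2 made up 0.448% and 0.754% of Pgam1 and Pgam2 together in control MB, 0.773% and 1.1% in knockdown MB, 21.2% in control MT and 3.4% in knockdown MT. Pfkm made up 42% and 42.8% of the 3 phosphofructokinases in control MB, 52.1% and 44.1% in knockdown MB, 58.6% in control MT and 49.9% in knockdown MT. The Pfkm share in knockdown MT therefore lay between the knockdown MB replicates. Eno3 made up 48% and 48.8% of the 3 enolases in control MB, 47.4% and 48.5% in knockdown MB, 50% in control MT and 42.6% in knockdown MT. The muscle share thus differed widely between libraries for Pgam, less for Pfk and little for Eno. These shares have no test, since MT groups are single libraries. They depend on the length used: with the length of the principal transcript the Eno3 shares were 24.1% to 30.2% and the Pfkm shares 29.9% to 46.2%, with control MT highest in each. They also leave out the near-identical copies of Eno1 and Pgam1. With Eno1b added to the enolases, the Eno3 share by principal transcript was 19% in knockdown MT, the lowest, to 24.4% in control MT, the highest.

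**Figure D2:**
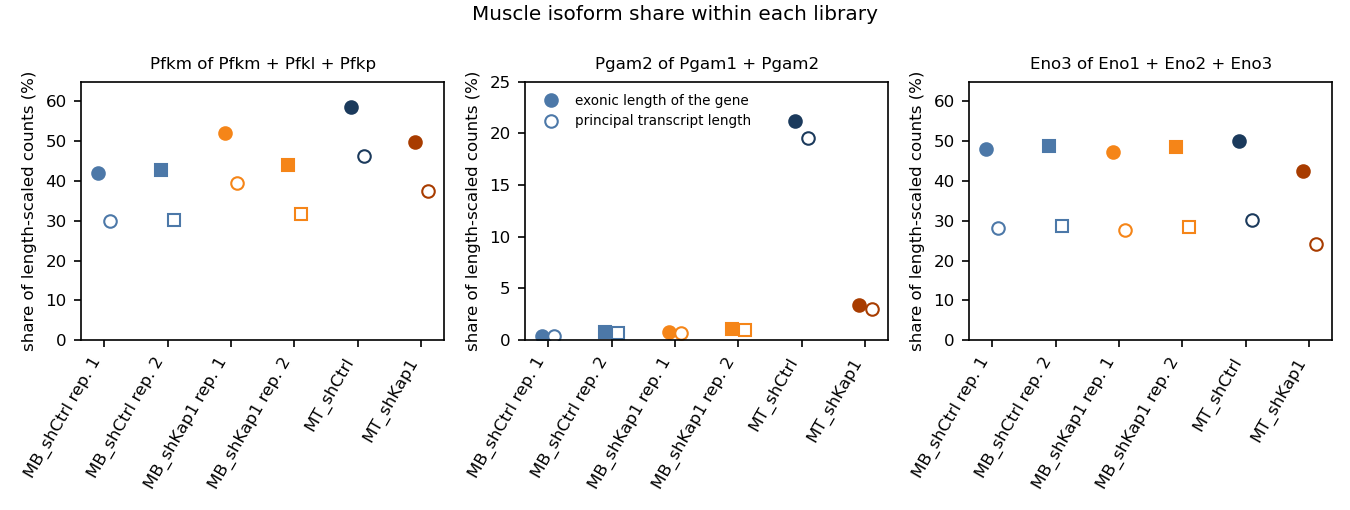
Share of the muscle isoenzyme within its family in each library, in percent of length-scaled counts, for Pfkm, Pgam2 and Eno3 (3 panels with their own y axes). Filled points use the exonic length of the gene and open points the principal transcript. Pgam2 goes from 0.448% to 1.1% in the MB libraries to 21.2% in control MT and 3.4% in knockdown MT.

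Among the enzymes of hexose entry, Hk2 and Gpi1 changed most. Hk2, the insulin-responsive hexokinase of muscle, was at 75.7 and 47.6 CPM in control MB, 79 and 54.6 in knockdown MB, 118 in control MT and 36.3 in knockdown MT. The 2 MT libraries lie on opposite sides of all MB libraries. Hk2 rose by 0.70 with control differentiation (SE 0.124, adjusted p = 0.00113, edgeR; 1.32 against replicate 2 alone) and fell by 1.23 with differentiation of knockdown cells (SE 0.133, adjusted p = 0.000129, edgeR; fell by 0.70 against replicate 2 alone). It fell by 1.84 with knockdown in MT (SE 0.14, adjusted p = 1.35e-05, edgeR). Gpi1, which turns glucose phosphate into fructose phosphate, was at 398 and 389, 359 and 369, 661 and 411 CPM in control MB, knockdown MB, control MT and knockdown MT. It rose by 0.78 in control MT (adjusted p = 0.000732, edgeR) and fell by 0.82 with knockdown there (adjusted p = 0.00255, edgeR). Hk1, the housekeeping hexokinase, was at 194 and 190, 165 and 196, 230 and 173 CPM in that order. It did not pass with differentiation and fell by 0.55 in knockdown MT (adjusted p = 0.0265, edgeR).

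In lower glycolysis Aldoa, Tpi1 and Pgk1 rose with control differentiation, and these 3 fell with knockdown in MT. Aldoa, the muscle-type aldolase that splits fructose bisphosphate, was at 912 and 887 CPM in control MB, 779 and 900 in knockdown MB, 1730 in control MT and 900 in knockdown MT. The knockdown MT level lies within the MB range. Aldoa rose by 1.01 on the log2 scale (SE 0.142, adjusted p = 0.00028, edgeR) and fell by 1.08 with knockdown in MT (SE 0.157, adjusted p = 0.00107, edgeR). Tpi1, triose phosphate isomerase, was at 858 and 786, 730 and 719, 1140 and 720 CPM in the same order of groups. It rose by 0.47 and fell by 0.80 (adjusted p = 0.0162 and 0.00372, edgeR). Pgk1, an ATP-forming kinase, was at 1100 and 1270, 942 and 1110, 1450 and 934 CPM. It rose by 0.43 and fell by 0.77 (adjusted p = 0.0233 and 0.00462, edgeR). For Pgk1 the difference against MB replicate 2 alone was 0.20, and copies held 13% to 14.4% of the joint counts.

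Gapdh, often used as a reference gene, was not constant here. It was at 1710 and 1620 CPM in control MB, 1530 and 1430 in knockdown MB, 2150 in control MT and 1310 in knockdown MT, the highest and lowest being the MT libraries. Its difference with control differentiation, 0.35 and 0.41 against the MB replicates, did not pass, and it fell by 0.85 with knockdown in MT (SE 0.146, adjusted p = 0.00282, edgeR). That direction held with each of the 3 scalings tried. Copies elsewhere in the genome, 40 of them counted, held 49.2% to 51.4% of the joint counts. Gapdh and its copies together gave 4269 CPM in control MT and 2576 CPM in knockdown MT, the same order.

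Pkm, pyruvate kinase, had the highest level per kilobase of exon among the 37 genes in the 4 MB libraries, 554 to 697 CPM per kilobase, while Pgk1 was higher in both MT libraries (645 against 551 and 416 against 411). This order depends on the exonic lengths, 5001 bases for Pkm, 4133 for Gapdh and 2244 for Pgk1, against principal transcripts of 2432, 1420 and 1825 bases. It also leaves out copies, which held 49.2% to 51.4% of the joint Gapdh counts. In CPM, Pkm stood at 3480 and 3330 in control MB, 2770 and 3040 in knockdown MB, 2760 in control MT and 2060 in knockdown MT. All other libraries lay below both of control MB, and knockdown MT was lowest. Pkm fell by 0.56 with knockdown in MT (adjusted p = 0.0319, edgeR) and by 0.56 with differentiation of knockdown cells (adjusted p = 0.0166, edgeR). Counts per gene do not separate its alternatively spliced forms. Aldoc, the brain-type aldolase, was near the limit of use at 0.582 to 1.21 CPM and passed in no comparison.

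The PFKFB enzymes make and remove the fructose bisphosphate signal that activates phosphofructokinase, and the 3 members all fell with control differentiation. Pfkfb3, the form typical of dividing cells, was at 32.6 and 20.4 CPM in control MB, 48.7 and 29.6 in knockdown MB, 18 in control MT and 29.6 in knockdown MT. In each pair of libraries the knockdown was higher. Pfkfb3 fell by 0.84 with control differentiation (SE 0.131, adjusted p = 0.000541, edgeR), but only by 0.17 against MB replicate 2 alone. It rose with knockdown in MT by 0.58 (SE 0.139, adjusted p = 0.0158, edgeR). Pfkfb1, the liver and muscle form, was at 4.79 and 3.22, 5.02 and 3.5, 1.81 and 3.81 CPM in the same order and fell by 1.37 (adjusted p = 0.00315, edgeR), or fell by 0.82 against replicate 2 alone. Pfkfb4 was at 13.1 and 10.5, 13.8 and 14, 6.54 and 9.16 CPM and fell by 0.89 (adjusted p = 0.00505, edgeR). Both lay higher in knockdown MT than in control MT, without passing. With differentiation of knockdown cells Pfkfb3 and Pfkfb4 fell (adjusted p = 0.00142 and 0.017, edgeR). For Pfkfb3 this was -0.79 in the fit but -0.11 against replicate 2 alone.

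Glucose transporters rose with control differentiation and fell with knockdown in MT. Slc2a1, the basal glucose transporter of most cells, was at 147 and 108 CPM in control MB, 128 and 121 in knockdown MB, 190 in control MT and 93 in knockdown MT. Control MT is above and knockdown MT below every MB library. It rose by 0.49 (adjusted p = 0.0242, edgeR; 0.83 against replicate 2 alone) and fell by 1.17 with knockdown in MT (SE 0.163, adjusted p = 0.00127, edgeR). Slc2a4, the insulin-regulated transporter of muscle and fat, was scarce, at 0.572 and 1.01 CPM in control MB, 0.986 and 2.38 in knockdown MB, 4.84 in control MT and 2.07 in knockdown MT. Its knockdown MT value lies between the knockdown MB replicates. It rose by 3.26 in control MT (SE 0.346, adjusted p = 4.21e-05, edgeR), or by 2.22 against MB replicate 2 alone, and fell by 1.36 with knockdown (adjusted p = 0.0209, edgeR). Slc2a3, a high-affinity transporter, was at 3.98 and 6.84, 4.31 and 5.38, 12.2 and 6.32 CPM in that order. It rose by 1.52 with control differentiation (adjusted p = 0.000492, edgeR; 0.84 against replicate 2 alone) and fell by 1.09 with knockdown in MT (adjusted p = 0.0132, edgeR).

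Of the lactate carriers, Slc16a3, the exporter of glycolytic muscle, followed the glucose transporters and Slc16a1, which works in either direction, did not. Slc16a3 was at 61.5 and 24 CPM in control MB, 40.7 and 20.5 in knockdown MB, 125 in control MT and 34.5 in knockdown MT. It rose by 1.14 with control differentiation (SE 0.143, adjusted p = 0.000174, edgeR), 2.39 against replicate 2 alone, and fell by 2.00 with knockdown in MT (SE 0.163, adjusted p = 3.45e-05, edgeR). Slc16a1 was at 83.4 and 166 CPM in control MB, 54.1 and 131 in knockdown MB, 78.5 in control MT and 53.5 in knockdown MT. The MB replicates lie farther apart than the groups, and within each pair the knockdown was lower. Slc16a1 fell by 0.69 with knockdown in MT (adjusted p = 0.00924, edgeR).

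The lactate dehydrogenase subunits moved in opposite directions with knockdown in MT. Ldha, the subunit that favours lactate formation, was at 1480 and 1330 CPM in control MB, 1130 and 1170 in knockdown MB, 1500 in control MT and 774 in knockdown MT. It fell by 1.09 there (SE 0.154, adjusted p = 0.000911, edgeR), while control MT lay just above the MB libraries, a difference that did not pass. Ldhb, the heart-type subunit, was at 11.6 and 14 CPM, 20.7 and 16.6 CPM, 13.1 CPM and 25.8 CPM in the same order. All knockdown libraries lay above all control libraries. Ldhb rose by 0.84 with knockdown in MT (SE 0.216, adjusted p = 0.0266, edgeR), while the MB difference did not pass.

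Pyruvate dehydrogenase feeds pyruvate into mitochondria, and the kinases Pdk1 and Pdk4 switch it off. Pdk1 was at 33.6 and 57.5 CPM in control MB, 27.5 and 50.3 in knockdown MB, 154 in control MT and 61.3 in knockdown MT. Both MT libraries lie above all MB libraries, knockdown MT by little. It rose by 2.25 in control cells (SE 0.123, adjusted p = 4.13e-07, edgeR; 1.43 against replicate 2 alone) and by 1.05 in knockdown cells (SE 0.125, adjusted p = 0.00022, edgeR; 0.17 against replicate 2 alone). In MT it fell by 1.47 with knockdown (SE 0.135, adjusted p = 5.58e-05, edgeR). Pdk4, the kinase raised by fasting, went the other way, at 94.3 and 53.2 CPM in control MB, 144 and 50.2 in knockdown MB, 17.7 in control MT and 49.8 in knockdown MT. Control MT is far below the other 5 libraries. Pdk4 fell by 2.57 (SE 0.253, adjusted p = 0.00079, edgeR), or fell by 1.58 against replicate 2 alone, and rose by 1.36 with knockdown in MT (SE 0.252, adjusted p = 0.0199, edgeR). Its fall in knockdown cells was -1.45 in the fit but -0.13 against replicate 2 alone. Pdha1, a catalytic subunit, was at 254 and 229, 251 and 239, 249 and 206 CPM. It fell only with differentiation of knockdown cells among the 5 comparisons, by 0.39 (adjusted p = 0.041, edgeR), and did not pass there with total library size or with DESeq2.

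In the oxidative pentose phosphate branch, G6pdx and Pgd fell with control differentiation and Pgls did not pass. G6pdx, the dehydrogenase that commits glucose phosphate to the pathway, was at 188 and 186 CPM in control MB, 174 and 163 in knockdown MB, 61.6 in control MT and 115 in knockdown MT. Knockdown MT lies between control MT and all MB libraries. G6pdx fell by 1.60 (SE 0.13, adjusted p = 6.66e-06, edgeR) with control differentiation and by 0.65 in knockdown cells (SE 0.125, adjusted p = 0.00318, edgeR), and it rose by 0.76 with knockdown in MT (SE 0.133, adjusted p = 0.00301, edgeR). Pgd, the second NADPH-forming dehydrogenase, was at 363 and 257 CPM, 394 and 236 CPM, 116 CPM and 180 CPM in control MB, knockdown MB, control MT and knockdown MT. As for G6pdx, knockdown MT lay between control MT and all MB libraries, but the MB replicates of Pgd differed more. Pgd fell by 1.68 (SE 0.141, adjusted p = 8.44e-06, edgeR; 1.14 against replicate 2 alone), and rose by 0.50 with knockdown in MT (adjusted p = 0.0337, edgeR), a call lost with DESeq2 and with its size factors. In knockdown cells it fell by 1.15 with differentiation, but fell by 0.51 against replicate 2 alone. Pgls, the lactonase between them, was at 35.1 and 46.6, 35.5 and 45.9, 31.9 and 35.3 CPM and passed in no comparison.

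Tkt had the largest fall with control differentiation and the largest rise with knockdown in MT of the 4 non-oxidative enzymes. Tkt encodes transketolase, which links the pathway to glycolysis. It was at 116 and 118 CPM in control MB, 153 and 135 in knockdown MB, 36.9 in control MT and 110 in knockdown MT. Control MT stands apart below the rest, and knockdown MT nearly reaches the control MB level. Tkt fell by 1.68 (SE 0.135, adjusted p = 6.51e-06, edgeR) with control differentiation and rose by 1.43 with knockdown in MT (SE 0.14, adjusted p = 7.84e-05, edgeR). Taldo1, transaldolase, was at 115 and 122, 134 and 130, 88.2 and 123 CPM in the same order of groups and fell by 0.38 (adjusted p = 0.0291, edgeR). Rpia, the ribose phosphate isomerase, was at 22 and 24.4, 17.7 and 20.2, 11.4 and 14.8 CPM and fell by 0.91 (adjusted p = 0.00101, edgeR). Rpe, the epimerase beside it, was at 38.4 and 43.1, 39.1 and 43.9, 29.8 and 33 CPM and fell by 0.34 (adjusted p = 0.0475, edgeR), just inside the threshold, and fell by 0.53 against replicate 2 alone. Rpe overlaps Kansl1l, at 19.3 to 42.1 CPM, so its reads are uncertain without a stated strand. None of these 3 passed with knockdown in MT.

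**Figure D3:**
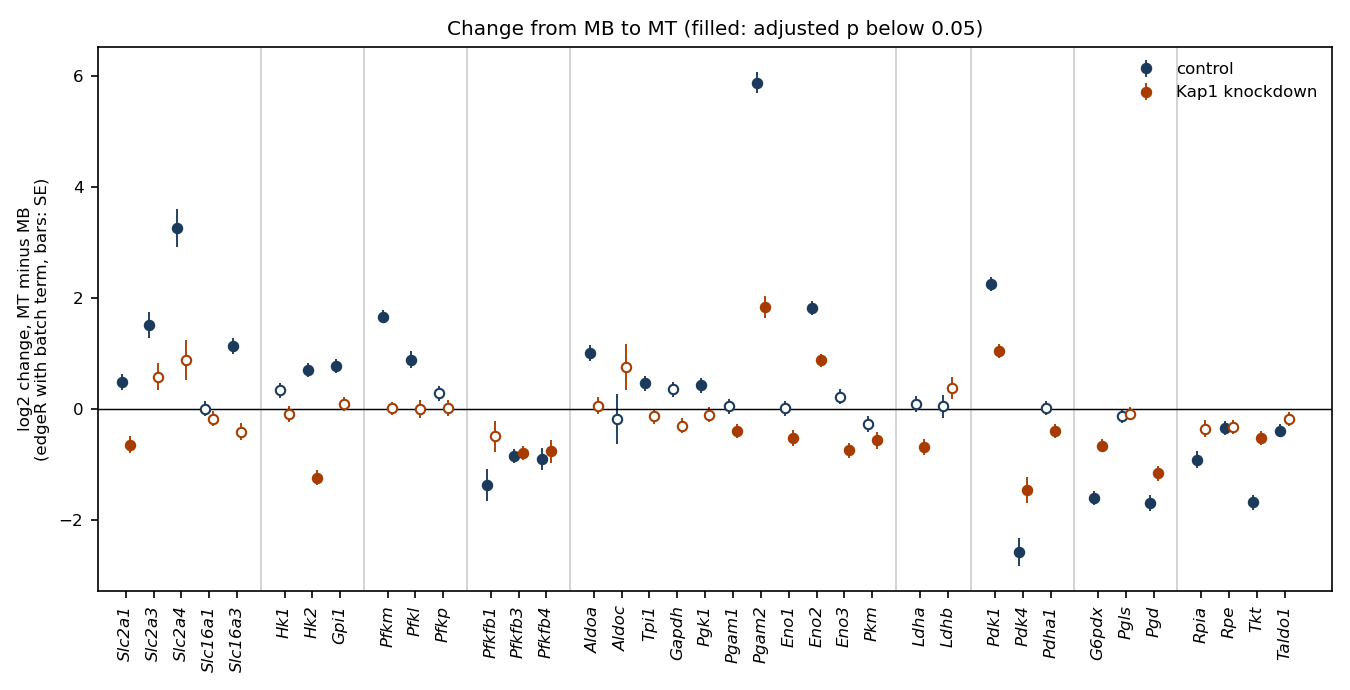
Log2 difference between MT and MB in control and knockdown cells for the 37 genes, from the edgeR fit with the batch term. Bars are standard errors derived from the test statistic, and filled points have an adjusted p below 0.05. In control cells Pgam2 stands at 5.87, and all 7 pentose phosphate enzymes at the right lie below 0.

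In knockdown cells few of these genes rose with differentiation. From MB to MT 3 of the 37 rose (Pgam2, Eno2 and Pdk1) and 14 fell, beside 33.1% of all genes tested called, 16.6% higher and 16.5% lower. Of the 17 glycolytic enzymes 2 rose and 5 fell (Hk2, Pgam1, Eno1, Eno3 and Pkm), with a median log2 difference of -0.09, and of the 7 pentose phosphate enzymes 3 fell (G6pdx, Pgd and Tkt), with a median of -0.35. Pgam1 and Pdha1 did not pass with total library size, nor, with Pfkfb4, in the DESeq2 Wald test with the batch term. For 10 of the 37 the difference had opposite signs in control and knockdown cells against both MB libraries, as a description of signs that includes differences that did not pass. They were Slc2a1, Hk1, Hk2, Aldoc, Tpi1, Gapdh, Pgk1, Pgam1, Eno3 and Ldha. Ldha, for example, fell by 0.67 in knockdown cells (SE 0.146, adjusted p = 0.00599, edgeR).

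The balance between the branches was taken as the summed length-scaled counts of the 17 glycolytic enzymes over those of the 7 pentose phosphate enzymes. It was 16.1 and 16.6 in control MB, 12.9 and 15.7 in knockdown MB, 40.3 in control MT and 15.9 in knockdown MT. Control MT stands far above the other 5 libraries, and knockdown MT lies within the control MB and knockdown MB values. Both parts of the ratio differed. The glycolytic sum was 3398 and 3368 CPM per kilobase in control MB, 2905 and 3097 in knockdown MB, 4180 in control MT and 2536 in knockdown MT. The pentose phosphate sum was 212 and 203, 225 and 198, 104 and 159 CPM per kilobase. No test was made of this ratio. It is led by abundant genes, and without the most abundant gene of each branch it was 57.5 in control MT and 20.7 in knockdown MT, against 14.4 to 18.4 in MB.

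**Figure D4:**
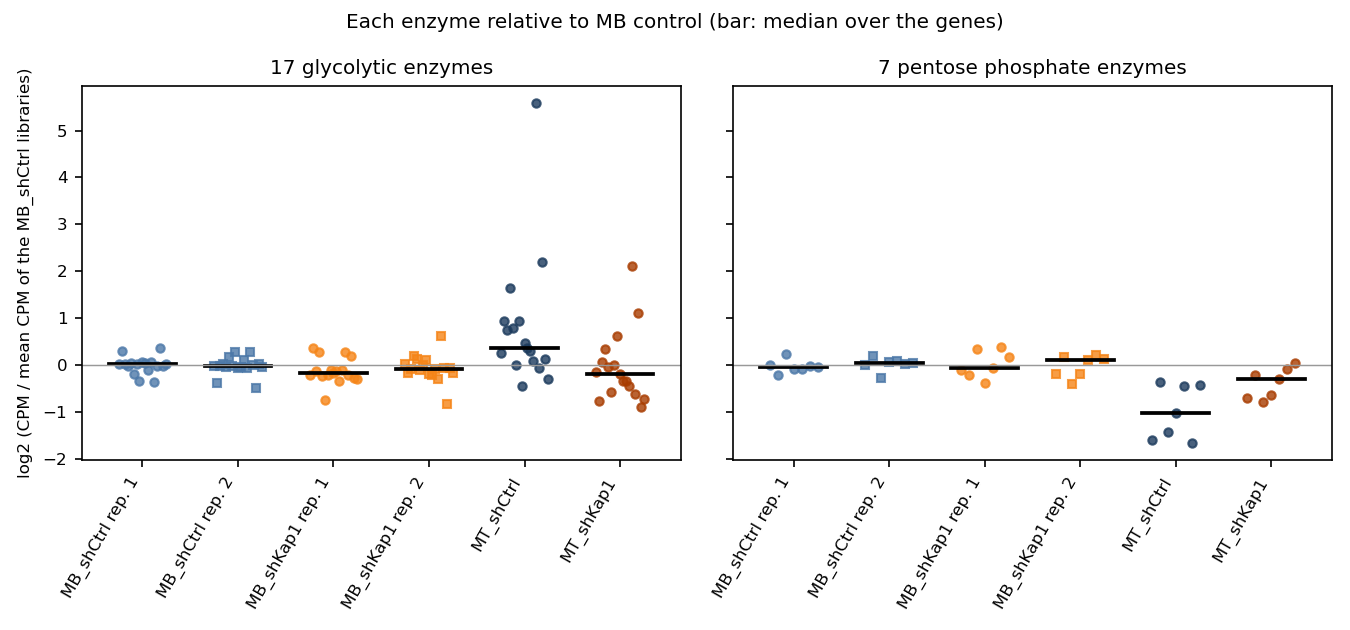
Each glycolytic (left) and pentose phosphate (right) enzyme relative to its mean in the control MB libraries, on a log2 scale of CPM, with 1 point per gene and a bar at the median in each library. The medians in control MT are 0.37 and -1.03, and in knockdown MT -0.19 and -0.30.

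In proliferating cells the knockdown changed few of these genes. With the batch term 1 of the 37 rose and 2 fell, beside 3.84% of all genes tested called, 2.5% higher and 1.34% lower. Pfkfb3 rose by 0.53 on the log2 scale (SE 0.097, adjusted p = 0.0144, edgeR), and its difference was 0.54 and 0.52 in the replicate 1 and 2 pairs. In the DESeq2 Wald test with the batch term neither Pfkfb3 nor Pfkp passed (adjusted p = 0.184 for Pfkfb3). Slc16a1 fell by 0.51 (SE 0.103, adjusted p = 0.0237, edgeR), with -0.66 and -0.36 in the pairs. Pfkp fell by 0.44 (SE 0.105, adjusted p = 0.0484, edgeR), with -0.59 and -0.29 in the pairs, and did not pass with scaling to total library size or to DESeq2 size factors. The 17 glycolytic enzymes had a median of -0.17 with 14 below 0, and the 7 pentose phosphate enzymes a median of -0.03 with 5 below 0. Of the glycolytic enzymes only Pfkp passed, and of the pentose phosphate enzymes none.

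**Figure D5:**
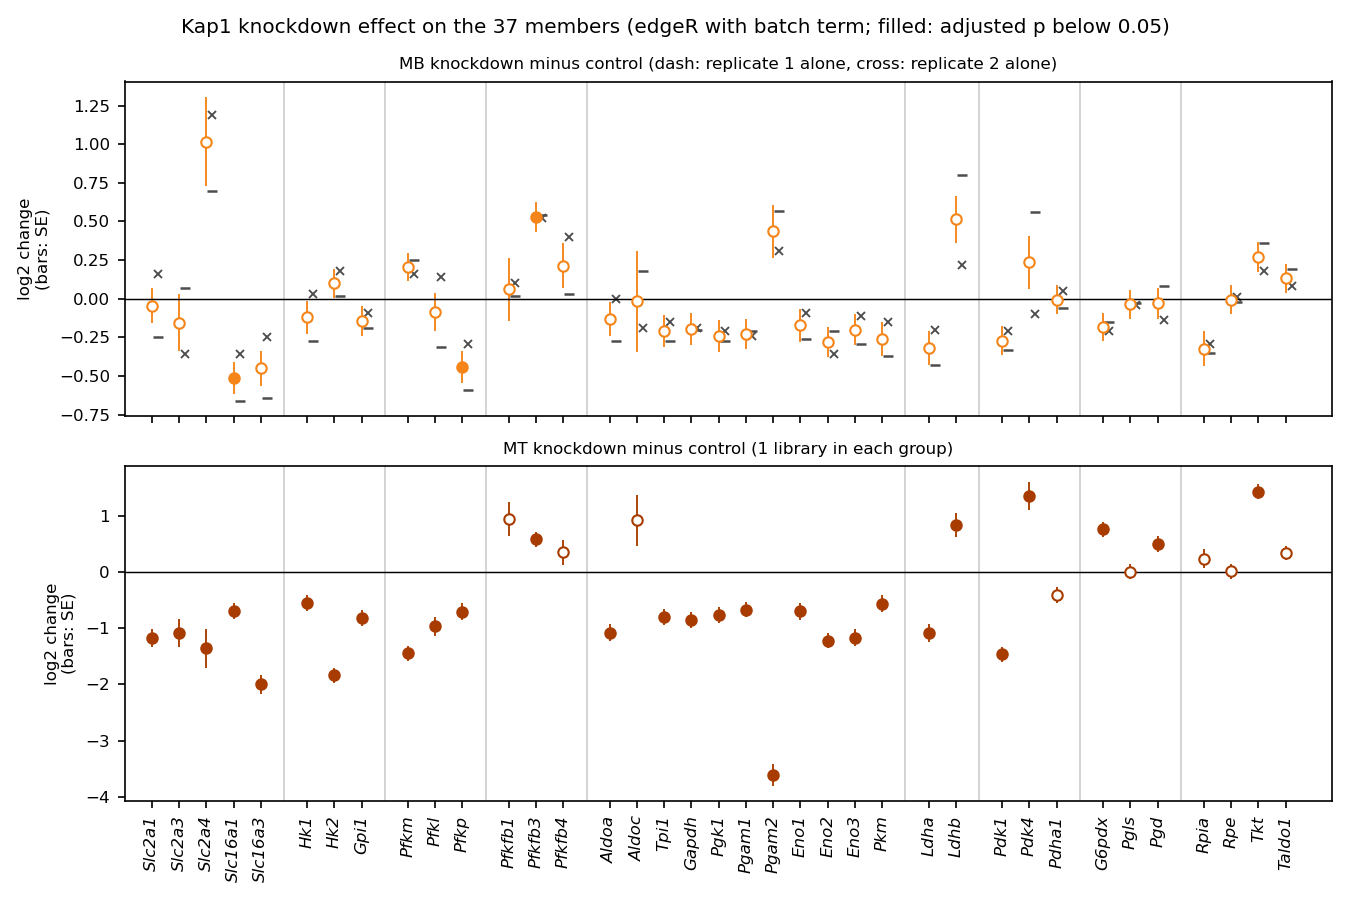
Log2 difference between knockdown and control for the 37 genes in MB (top, with the replicate 1 and replicate 2 pairs shown as dashes and crosses) and MT (bottom, 1 library in each group), from the edgeR fit with the batch term. Bars are standard errors derived from the test statistic, and filled points have an adjusted p below 0.05. The MB differences are called for 3 genes and the MT differences for 29, with Pgam2 at -3.61.

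Genes next to these pathways were read from a list of 56, of which 43 passed the filter on low counts. In control differentiation 17 rose (39.5%) and 9 fell (20.9%), beside 22.3% and 22.6% of all genes tested. In knockdown MT 5 rose (11.6%) and 6 fell (14%), near the 9.09% and 11.2% of all genes. With differentiation of knockdown cells 9 rose (20.9%) and 6 fell (14%), beside 16.6% and 16.5%. In knockdown MB 0 did either, and the test of the difference between the knockdown effects called 1 higher (2.33%) and 6 lower (14%), beside 3.82% and 6.63%. Pygm, the muscle glycogen phosphorylase, moved most and was at 2.29 and 1.97 CPM in control MB, 1.89 and 2.31 in knockdown MB, 106 in control MT and 2.37 in knockdown MT, so that only control MT stood apart. It rose by 5.68 with control differentiation (adjusted p = 1.84e-08, edgeR) and fell by 5.61 with knockdown in MT (adjusted p = 1.86e-07, edgeR). Gys1, glycogen synthase, rose by 1.09 and fell by 1.37 (adjusted p = 8.5e-05 and 0.000118, edgeR), from 66.8 and 54.5 CPM in control MB to 134 in control MT and 57.2 in knockdown MT. Pgm1, which links glycogen to glycolysis, rose by 1.22 and fell by 1.22 (adjusted p = 2.79e-05 and 0.00017, edgeR). Pdk2, another pyruvate dehydrogenase kinase, rose by 2.22 in control cells (adjusted p = 0.000916, edgeR; 1.25 against replicate 2 alone).

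Some neighbours fell with differentiation in both control and knockdown cells. Gpd2, the mitochondrial glycerol phosphate dehydrogenase, was at 125 and 128 CPM in control MB, 108 and 106 in knockdown MB, 29.5 in control MT and 38.9 in knockdown MT. It fell by 2.08 in control cells and fell by 1.54 in knockdown cells (adjusted p = 1.16e-06 and 3.02e-05, edgeR). Prps1, which makes the activated ribose used for nucleotides from a pentose phosphate product, was at 67.8 and 66.6, 65.7 and 64.2, 25.9 and 34 CPM in the same order. It fell by 1.36 and fell by 1.03 (adjusted p = 1.9e-05 and 0.000281, edgeR). All MB libraries lay above both MT libraries for these 2 genes, and neither passed with knockdown in MT.

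The other neighbours with the largest called changes were as follows. With control differentiation Gpd1, the cytosolic glycerol phosphate dehydrogenase, rose by 1.53. Phkg1, a phosphorylase kinase subunit, was called higher near the floor of 3 counts, at 0.238 and 0.0492 CPM in control MB and 0.762 in control MT. Pdp1, a phosphatase that switches pyruvate dehydrogenase on, was at 12.3 and 28.3 CPM in control MB, 9.88 and 21.1 in knockdown MB, 33.8 in control MT and 26.6 in knockdown MT. Its rise of 1.46 in control and 1.38 in knockdown cells was 0.26 and 0.22 against replicate 2 alone. Pgm2l1 fell by 1.98, Pdp2, another such phosphatase, fell by 1.25 and Pgm2 fell by 0.80. With knockdown in MT, Slc16a4 rose by 1.14, Pdp2 by 0.97, the kinase Pdk3 by 0.59, Mpc2, a subunit of the mitochondrial pyruvate carrier, by 0.56 and the brain-type phosphorylase Pygb by 0.51, while H6pd, the dehydrogenase of the endoplasmic reticulum, fell by 0.52. With differentiation of knockdown cells Pdk2 (1.55, or 1.03 against replicate 2 alone), Slc16a4 (1.38), Shpk (1.16) and Slc2a8 (0.88) rose, and Pgm2l1 (-1.04), Tigar (-0.70) and H6pd (-0.45) fell. The knockdown effect in MT differed from that in MB, with the difference in parentheses, for genes that include Pygm (-5.56), Gys1 (-1.36), Pgm1 (-0.97), Bsg (-0.73), H6pd (-0.67) and Pdp2 (1.15).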

How the data were processed

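The deposited files hold whole-number read counts per Ensembl gene, with 1 file to a library. The authors aligned reads to mm9 using TopHat2 2.0.11 and made the counts with HTSeq, per the submitters' processing notes; annotation, counting mode and strand setting: not given in the sources used here. Lines without a gene stayed out of totals and tests; reads outside genes made up 5.18% to 8.07% and ambiguous reads 2.81% to 2.93%. Symbols and exonic lengths came from GENCODE M21 and promoters from RefSeq, both of a later build, with 32919 identifiers matched to a symbol.

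The tests used edgeR 4.0.16 (R 4.3.3; quasi-likelihood, robust, TMM factors 0.972 to 1.07, filterByExpr), all 6 libraries in 1 fit with a mean per group, with Benjamini-Hochberg adjustment over 16472 genes and a threshold of 0.05. The SE printed is the absolute log2 difference divided by the square root of the quasi-likelihood F statistic. It is derived from the test and is no measured spread between the libraries compared. Within-replicate differences are of log2 CPM with a prior count of 2. The primary fit had no batch term, 2 residual degrees of freedom and a biological coefficient of variation of 32.9%. The second had a term for the file-name mark, 1 residual degree of freedom and 9.74%, and it is the fit described. It was planned as an alternative to the primary fit, which called 0 genes. DESeq2 1.42.0 was an alternative. Near-identical copies were found with BLAST 2.17.0 (at least 95% identity over 200 bases). The edgeR script was checked on simulated counts.

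The members and lists were chosen with earlier results of these data known, and no list was tested as a set. All 37 members may be named. Values in every library are given for the isoenzymes, the pentose phosphate enzymes and every member called, and of 56 neighbouring genes those called with the largest changes are named. One of them is counted but not reported here by name. No protein sequences are shown. The MT groups of 1 library have no replicate check, and floors of 3 counts cover counting error alone.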

Additional observations from a re-analysis of the deposited data

Results flagged for a closer look

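For 16 genes the knockdown effect differed between MT and MB in a test of that difference (edgeR with the batch term, adjusted p below 0.05). The values are the MT effect minus the MB effect on the log2 scale, and each MT effect compares 1 library with 1 library. None passed in edgeR without the batch term, where the smallest adjusted p of all genes was 0.848, and 3 of the 16 (Pfkm, Pgam2 and Tkt) passed in DESeq2 without it.

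Among glycolytic enzymes the difference was -4.04 for Pgam2, -1.94 for Hk2, -1.65 for Pfkm, -0.97 for Eno3, -0.94 for Aldoa and -0.94 for Eno2. It was -0.88 for Pfkl, -0.68 for Gpi1 and -0.65 for Gapdh. Among transporters it was -2.38 for Slc2a4, -1.55 for Slc16a3 and -1.12 for Slc2a1. For Pdk1 it was -1.20 and for Ldha -0.77. Of the pentose phosphate enzymes it was 0.95 for G6pdx and 1.16 for Tkt. All 16 kept their sign under every other setting with the batch term. With total library size Pfkl, Gpi1, Gapdh and Ldha did not pass, and with DESeq2 Slc2a4 did not. Slc2a4 rests on low levels, 0.572 to 4.84 CPM. Over the same libraries the myotube marker sum was 6310 CPM in control MT and 110 CPM in knockdown MT, and its part in these differences was not tested.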

How the results depend on the processing

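The replicate block, a term for the split by replicate number and file-name mark, decided the calls. Without it the otherwise same edgeR fit called 0 of the 37 genes in any comparison. With it 3 were called in knockdown MB, 29 in knockdown MT, 24 in control differentiation, 17 in differentiation of knockdown cells and 16 in the difference between the knockdown effects. Only 2 pairs share a number and the labels do not say that it marks a batch. The deviations of the pairs correlate at 0.762 across genes. Of settings without the block, DESeq2 called 11 genes in knockdown MT, 14 in control differentiation, 4 in differentiation of knockdown cells and 3 in the difference of effects. In control differentiation DESeq2 size factors gave 2 calls and no low-count filter 4, and leaving out single MB libraries gave 0 to 1. The cause was not tested. Leaving out a library with the block leaves no residual degrees of freedom and was not run.

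The following settings with the block were chosen after seeing the data. For knockdown MB, knockdown MT, control differentiation, differentiation of knockdown cells and the difference of effects in turn, DESeq2 size factors called 2, 29, 25, 17 and 16 genes. Total library size called 2, 29, 24, 15 and 12. No low-count filter called 5, 30, 25, 19 and 18, and the DESeq2 Wald test 1, 24, 21, 14 and 17. Of the 29, 24 and 16 called in knockdown MT, control differentiation and the difference of effects, this DESeq2 fit kept 24, 20 and 15. The 91 single-gene results compared were those of members called with the block, and of Trim28. Their directions did not reverse in any setting, except for Slc16a1 in knockdown MB without the block. Leaving out MB_shKap1 replicate 2 gave -1.26, the lowest value, leaving out MB_shCtrl replicate 2 gave 0.13, the highest, and leaving out MB_shKap1 replicate 1 gave 0.06.

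Shares and ratios depend on gene length by construction. With counts not divided by length the Pfkm share was 24.4% in control MB (mean), 29.6% in knockdown MB, 39.4% in control MT and 31.2% in knockdown MT. The Pgam2 share was 0.256%, 0.4%, 10.3% and 1.47%, and the Eno3 share 23.3%, 23%, 24.6% and 19.5%. With principal transcript length, added after seeing the data, Pfkm had 30%, 35.6%, 46.2% and 37.4%, Eno3 28.4%, 28%, 30.2% and 24.1%, and Pgam2 19.5% in control MT and 3.05% in knockdown MT. Control MT was highest under each length. The ratio of glycolytic to pentose phosphate counts was 14.5 in control MB, 38 in control MT and 14.7 in knockdown MT without length, 15.1, 36 and 14.8 with principal transcripts, and 17.7, 57.5 and 20.7 without the most abundant gene of each branch. Depth limits Aldoc, Slc2a4 and Pgam2 in MB most, with levels near 1 or 2 CPM.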
